A study of Mus musculus with 2 samples.

Results

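The genes described here were grouped under the release and breakdown of extracellular ATP. They encode a release channel, nucleotide-cleaving enzymes of the cell surface and of inner membranes, adenosine receptors and a nucleoside transporter. They were taken as a list of 10 gene symbols out of the 32285 genes in the count tables: Panx1, Entpd1, Entpd2, Entpd4, Entpd5, Nt5e, Enpp1, Adora1, Adora2b and Slc29a1. Their UMIs (unique molecular identifiers, each marking 1 captured transcript) were read in GL261, a mouse glioma cell line that grows as an adherent layer or as free-floating neurospheres. Single-cell RNA sequencing gave 1 library of adherent cells and 1 library of neurosphere cells. Both cultures grew in DMEM, to which 10% FBS and penicillin-streptomycin (1%) had been added. Neurosphere cells received in addition 20 ng/mL of EGF, 20 ng/mL of FGF and B-27 at 1:50, and were collected after 12 days. With 1 library of a single cell line in each culture, no test was possible, no difference has a replicate check, and the culture cannot be told apart from the library. All intervals given are exact 95% intervals that cover counting error only.

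ATP that leaves a cell through channels such as pannexins acts on P2 receptors of the same cell or its neighbours. Ectonucleotidases on the cell surface cut it stepwise to ADP and AMP, and ecto-5'-nucleotidase turns AMP into adenosine, which binds its own receptors and is carried back into cells by nucleoside transporters. In gliomas this chain is studied because extracellular ATP and adenosine act on tumor growth and on immune cells.

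The adherent library held 5051 kept cells with a median of 8260 UMIs, and the neurosphere library 4276 kept cells with a median of 13198.5 UMIs. Levels are given as CPM, counts of a gene per 1e6 UMIs on the genes left after filtering (46290996 UMIs in the adherent and 64943938 in the neurosphere library). All 8 glioma and neural markers had UMIs in both libraries, with Vim in 99.7% of adherent and 99.1% of neurosphere cells, although Gfap, a defining astrocyte marker, had only 30 and 27 UMIs. Of 8 immune markers, 6 had UMIs in adherent and 5 in neurosphere cells (summed 2.92 and 2.20 CPM), and Ptprc, found on nearly all white blood cells, had 1 UMI and 0 UMIs. Of 4 fibroblast and pericyte markers, 3 had UMIs in adherent cells (0.734 CPM summed, Lum at 0) and 4 in neurosphere cells (57.9 CPM, with Dcn in 26.7% of cells). Of 4 endothelial markers, 2 and 3 had UMIs (1.47 and 3.79 CPM, Cdh5 at 0 in both), and of 2 hemoglobin genes 1 and 2 had UMIs (3.15 and 0.0924 CPM, Hbb-bs at 0 in adherent cells). The part of these marker levels in the differences below was not tested. No cell type in the data is known to lack the genes described here, so a background share of cells could not be measured. Low shares are set beside those of the 8 immune markers, whose median was 0.0396% in adherent and 0.0351% in neurosphere cells. Cx3cr1 stood apart from the rest at 1.96% and 2.13%, and the next, Cd79a, was at 0.396% and 0.585%.

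Of the 10 genes, 9 had UMIs in the kept cells and 6 reached 50 UMIs over both libraries. None of these 6 was over 2-fold higher in neurosphere cells, 3 were over 2-fold lower (Entpd2, Enpp1 and Slc29a1), and 3 lay within 2-fold (Entpd1, Entpd5 and Nt5e). Of all 14654 genes with at least 50 UMIs, 21.7% were over 2-fold higher and 11.7% were over 2-fold lower. Their median log2 fold change was 0.32, and that of the 6 genes was -0.52. Over the 4 genes with at least 200 UMIs it was -1.78, but no median of all genes was taken at that minimum. The shares of all genes over 2-fold depended on the scaling of the libraries. They were 16.1% and 14.5% with TMM scaling, and 29.5% and 9.38% when mitochondrial and ribosomal genes stayed in the total. Of the 6 genes, 3 were over 2-fold lower with TMM scaling and 2 with that total.

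The 10 genes together held 126 CPM (5839 UMIs, 122.9 to 129.4 CPM) in adherent cells and 53.6 CPM (3480 UMIs, 51.8 to 55.4 CPM) in neurosphere cells. Slc29a1 supplied most of them, 72.8% of the adherent and 79.3% of the neurosphere UMIs. Entpd2 supplied 11.3% in adherent cells and 1.32% in neurosphere cells. Entpd5 supplied 4.11% in adherent cells and 11.2% of the smaller neurosphere sum, with levels of its own that did not separate (5.18 and 6.01 CPM). Per kilobase of exon, the order of levels in adherent cells was Slc29a1 (22.9 CPM per kilobase), Entpd2 (6.71), Enpp1 (1.32), Entpd5 (0.859), Adora2b (0.129), Entpd1 (0.0890), Nt5e (0.0527), Panx1 (0.0143) and Adora1 (0.00747). The counting interval of each of the first 4 was separate from that of the next gene, while each gene from Adora2b on overlapped the next. In neurosphere cells the order was Slc29a1 (10.6 CPM per kilobase), Entpd5 (0.994), Entpd2 (0.333), Enpp1 (0.240), Adora2b (0.217), Entpd1 (0.0938), Nt5e (0.0806), Panx1 (0.0332) and Adora1 (0.0133). There, Entpd2 overlapped Enpp1, Enpp1 overlapped Adora2b, Entpd1 overlapped Nt5e and Panx1 overlapped Adora1. Entpd5 thus stood in the second place in neurosphere cells and in the fourth place in adherent cells. A 3' library counts each transcript near its end, so length scaling is only one way to set genes side by side.

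**Figure D1:**
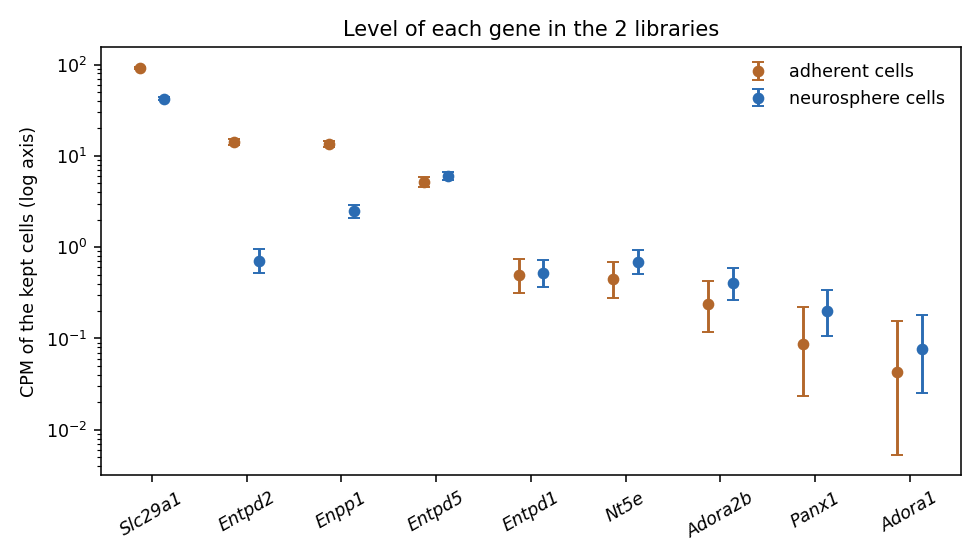
Level of 9 of the 10 genes (Entpd4 had no UMI) in adherent (brown) and neurosphere (blue) cells, as CPM on a log axis with exact 95% Poisson intervals as bars. The intervals of Slc29a1, Entpd2 and Enpp1 are apart between the libraries, with adherent cells higher, and those of the other genes meet.

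Panx1 encodes pannexin 1, a channel through which ATP leaves cells. The adherent library held 4 UMIs of it and the neurosphere library 13 UMIs, that is 0.0864 CPM (0.0235 to 0.221) and 0.200 CPM (0.107 to 0.342). A UMI was seen in 0.0792% and 0.304% of cells, within the range of the immune markers even without Cx3cr1, so these counts were read neither as expression nor as a difference. After each cell was thinned to 5000 UMIs, the shares were 0.0448% and 0.0477%. Panx1 (ENSMUSG00000031934) lies on chromosome 9 at 15002128-15045478, minus strand (GRCm38, as are all gene positions given here).

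The related genes Panx2 and Panx3 were also near the floor, Panx2 with 1 UMI and 2 UMIs and Panx3 with 9 UMIs and 3 UMIs in the adherent and the neurosphere library. Other release genes were more abundant. Of 15 such genes, 9 reached 50 UMIs, of which 2 were over 2-fold higher in neurosphere cells, 2 over 2-fold lower and 5 within 2-fold, with a median log2 fold change of 0.74. Ank, a membrane protein through which ATP and pyrophosphate leave cells, was at 6.89 CPM in the adherent library and at 21.8 CPM in the neurosphere library (log2 fold change 1.66, 1.49 to 1.84). Lrrc8a, the required subunit of volume-regulated anion channels, was 10.2 and 25.2 CPM, a log2 fold change of 1.31 (1.16 to 1.46). Gja1, which encodes connexin 43, was 20.5 and 8.13 CPM, a log2 fold change of -1.34 (-1.49 to -1.18). Other subunits of the same anion channel lay in both directions. Lrrc8e was lower (log2 fold change -1.04), while Lrrc8d and Lrrc8c, the release genes with the most UMIs, were higher within 2-fold (0.78 and 0.58). Slc17a9, the vesicular nucleotide transporter that loads ATP for exocytosis, had 23 UMIs and 21 UMIs and was not compared.

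Entpd2, Enpp1 and Entpd1 encode enzymes that hydrolyse ATP outside the cell. Summed, the 3 genes held 28.3 CPM (1310 UMIs, 26.8 to 29.9 CPM) in adherent cells and 3.70 CPM (240 UMIs, 3.24 to 4.19 CPM) in neurosphere cells. Their summed log2 fold change was -2.94 (-3.14 to -2.74). The share of Entpd2 in these UMIs was 50.5% in the adherent and 19.2% in the neurosphere library, and that of Enpp1 was 47.8% and 66.7%.

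Entpd2 (ENSMUSG00000015085) encodes a surface enzyme that prefers ATP to ADP. Adherent cells had 661 UMIs, 14.3 CPM (13.2 to 15.4), and neurosphere cells had 46 UMIs, 0.708 CPM (0.519 to 0.945). The neurosphere level was thus 20.2-fold lower, a log2 fold change of -4.33 (-4.80 to -3.90). Of the genes with at least 50 UMIs, 81 (0.553%) had a lower log2 fold change than Entpd2. A UMI was seen in 10.5% of the adherent cells but only in 0.982% of the neurosphere cells. Thinned to 5000 UMIs, the shares were 6.23% and 0.262%. The neurosphere share was above 7 of the 8 immune markers and below Cx3cr1, so whether those 46 UMIs stand above background was not settled, and the fold rests on them. No cell held more than 5 UMIs of Entpd2 in the adherent or 3 UMIs in the neurosphere library.

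Entpd2 lies on chromosome 2 at 25395874-25401321, plus strand, and overlaps its neighbour Npdc1 on the same strand by 1971 bases. Cell Ranger does not count reads that match both genes. Npdc1 differed in the opposite direction, with 170 UMIs and 504 UMIs, a log2 fold change of 1.08 (0.83 to 1.34), and the part of the overlap in either value was not tested.

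Enpp1 (ENSMUSG00000037370) encodes a surface pyrophosphatase that cuts ATP to AMP and pyrophosphate. The adherent library held 626 UMIs of it, 13.5 CPM (12.5 to 14.6), and the neurosphere library 160 UMIs, 2.46 CPM (2.10 to 2.88). Its neurosphere level was 5.49-fold lower, with a log2 fold change of -2.46 (-2.72 to -2.20), and 3.35% of the genes with at least 50 UMIs had a lower one. Of the adherent cells 10.3% had a UMI and of the neurosphere cells 3.34%, or 6.09% and 1.02% after thinning. In neurosphere cells the share of Enpp1 was above that of Cx3cr1 as counted and close to it after thinning (0.858% for Cx3cr1). Enpp1 lies on chromosome 10 at 24637914-24712159, minus strand.

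Few cells had a UMI of both Entpd2 and Enpp1, each of which was itself seen in a small share of cells. In adherent cells thinned to 5000 UMIs, 22 of 4464 cells (0.493%, 0.309 to 0.745) had a UMI of both, and the product of their separate shares was 0.379%, which lies inside that interval. Without thinning, 75 cells had both (1.48%, 1.17 to 1.86), and the product of 1.08% lay below that interval. In neurosphere cells 1 cell had both after thinning. Without thinning 5 cells had both (0.117%, 0.0380 to 0.273), and the product of 0.0328% also lay below that interval. The part of the depth of the cells in these unthinned shares was not tested.

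The start regions of Entpd2, Enpp1 and Slc29a1 are shown because these are the genes of the list, among those with at least 50 UMIs, that differed by over 2-fold. Each is 300 bases from RefSeq (GRCm38.p6), from 250 bases before to 50 bases after the transcription start, read on the strand of the gene. Capitals mark the GC box (GGGCGG) and the AP-1 site (TGANTCA), each on either strand. The Entpd2 region is chr2:25395624-25395923 on the plus strand, the Enpp1 region is chr10:24712110-24712409 on the minus strand, and the Slc29a1 region, the farthest upstream of 8 listed starts, is chr17:45599569-45599868 on the minus strand.
Entpd2: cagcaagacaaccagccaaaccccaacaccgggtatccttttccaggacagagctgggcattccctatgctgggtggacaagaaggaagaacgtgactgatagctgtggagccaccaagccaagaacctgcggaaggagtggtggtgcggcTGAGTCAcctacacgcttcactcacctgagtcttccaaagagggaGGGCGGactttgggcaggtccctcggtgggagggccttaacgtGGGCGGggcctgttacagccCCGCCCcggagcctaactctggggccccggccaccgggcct
Enpp1: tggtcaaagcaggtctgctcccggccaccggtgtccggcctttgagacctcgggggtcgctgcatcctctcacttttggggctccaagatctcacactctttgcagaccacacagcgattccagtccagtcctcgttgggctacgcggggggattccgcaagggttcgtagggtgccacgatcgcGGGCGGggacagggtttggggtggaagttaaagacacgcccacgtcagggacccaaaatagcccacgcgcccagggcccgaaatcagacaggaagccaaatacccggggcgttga
Slc29a1: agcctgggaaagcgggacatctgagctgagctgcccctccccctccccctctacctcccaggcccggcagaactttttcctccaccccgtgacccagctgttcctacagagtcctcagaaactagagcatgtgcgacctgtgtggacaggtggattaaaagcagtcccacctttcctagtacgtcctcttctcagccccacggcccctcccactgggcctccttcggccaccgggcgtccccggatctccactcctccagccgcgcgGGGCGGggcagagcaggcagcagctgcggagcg

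The Entpd2 region held 3 GC boxes and 1 AP-1 site, and the Enpp1 and Slc29a1 regions held 1 GC box each. Among the 9 genes with a RefSeq region (Entpd4 was not listed under its symbol), 7 held a GC box, against 35.7% of 32851 regions of this length. The 9 regions were richer in G and C (61.3% to 71.0%) than the median of all regions (52.7%), and the part of this in the count was not tested. An AP-1 site was found in 2 of the 9, Entpd2 and Adora1, and in 7.81% of all regions. The letters ACGTG, the core of the hypoxia response element, were found in 4 of the 9 (Adora1, Enpp1, Entpd2 and Entpd5) and in 19.6% of all regions. CCAAT was found in 3 of the 9 (37.4% of all regions), while TATAAA (13.6%) and CACGTG (7.15%), which itself contains ACGTG, were found in none. These matches are letters in a window and do not show that a factor binds there.

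Entpd1 (ENSMUSG00000048120), also known as CD39, converts ATP and ADP to AMP and is the best studied of these enzymes on immune and endothelial cells. It had 23 UMIs in adherent and 34 UMIs in neurosphere cells, 0.497 CPM (0.315 to 0.746) and 0.524 CPM (0.363 to 0.732). The log2 fold change was 0.08, with an interval from -0.73 to 0.91 that spans both directions. Its share of cells, 0.455% and 0.795%, lay above 7 of the 8 immune markers and below Cx3cr1, too low to settle whether it was expressed. Entpd1 lies on chromosome 19 at 40612366-40741602, plus strand, and the annotation places AC166063.1, Gm16027 and Gm8783 on the same strand within its span, so shared reads could be lost from its count.

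Entpd5 (ENSMUSG00000021236) encodes an enzyme of the endoplasmic reticulum that hydrolyses UDP and GDP rather than extracellular ATP. It had 240 UMIs in adherent and 390 UMIs in neurosphere cells, 5.18 CPM (4.55 to 5.88) and 6.01 CPM (5.42 to 6.63). The intervals met, and the log2 fold change was 0.21 (-0.02 to 0.45), with 45.0% of the genes with at least 50 UMIs below it. With TMM scaling it was -0.00, and with mitochondrial and ribosomal genes in the total it was 0.43. Entpd5 was seen in 4.65% of adherent and 8.58% of neurosphere cells, but in 2.67% and 3.24% once cells were thinned to the same depth. It lies on chromosome 12 at 84373857-84409029, minus strand.

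Entpd4 (ENSMUSG00000095463), an enzyme of the Golgi and lysosome membranes, had 0 UMIs in all called cells of both libraries. It lies on chromosome 14 at 69337174-69367270, plus strand, and has a copy, Entpd4b, at 69555424-69585520 on the same strand, which also had 0 UMIs. Of its 6 annotated transcripts, 5 were identical in sequence to an Entpd4b transcript, and all 11873 of its windows of 90 bases also occurred in Entpd4b. Cell Ranger counts only reads that it can assign to a single gene, so the 0 says nothing of whether Entpd4 was expressed.

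Nt5e (ENSMUSG00000032420), also known as CD73, encodes the ecto-5'-nucleotidase that makes adenosine from AMP. It had 21 UMIs in adherent and 45 UMIs in neurosphere cells, 0.454 CPM (0.281 to 0.693) and 0.693 CPM (0.505 to 0.927). The log2 fold change was 0.61, and its interval, -0.17 to 1.43, included no change. A UMI was seen in 0.416% of adherent and 1.03% of neurosphere cells, again above 7 of the 8 immune markers and below Cx3cr1, so whether Nt5e was expressed was not settled. Nt5e lies on chromosome 9 at 88327197-88372092, plus strand.

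UMIs of Nt5e and of any of Entpd1, Entpd2 and Enpp1 were also counted within the same cells. After thinning to 5000 UMIs, 540 of 4464 adherent cells (12.1%) had a UMI of a surface hydrolase and 11 (0.246%) had one of Nt5e, and 4 cells had both (0.0896%, 0.0244 to 0.229). The product of the separate shares was 0.0298%, inside that interval. In neurosphere cells, 63 of 4196 had a hydrolase UMI, 20 (0.477%) had a UMI of Nt5e and 0 had both (exact upper limit 0.0879%). The floor of 3 counts corresponds to a share of 0.0715%. Without thinning, 4 cells in each library had both (0.0792% and 0.0935%). The number of cells with both was thus too small to compare the cultures.

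**Figure D2:**
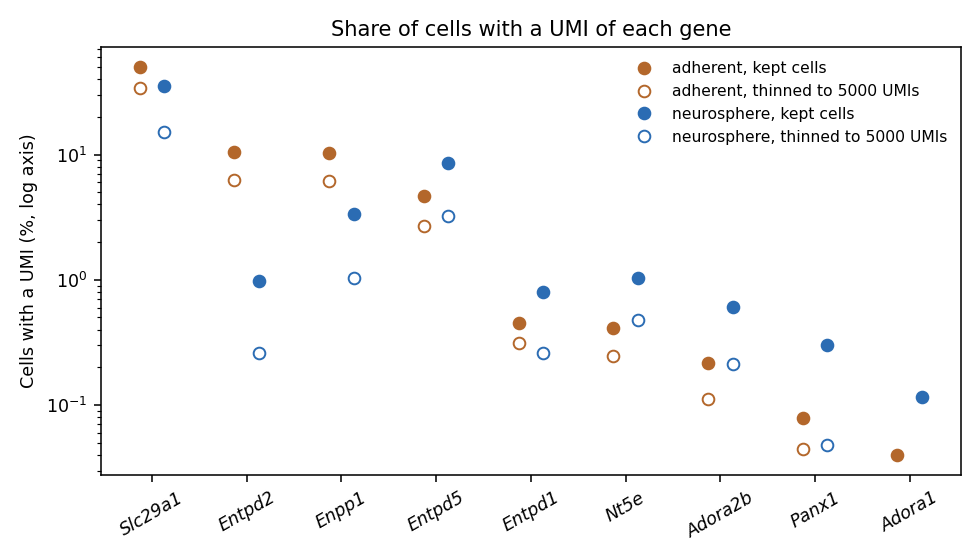
Share of cells with at least 1 UMI of each gene, in percent on a log axis, for all kept cells (filled) and for cells thinned to 5000 UMIs (open), in adherent (brown) and neurosphere (blue) cells. Adora1 has no open point because its thinned share was 0 in both libraries, and only Slc29a1, Entpd2 and Enpp1 are higher in adherent cells in both forms.

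Other enzymes of nucleotide breakdown differed in both directions. Of 9 such genes, 7 reached 50 UMIs, with 3 over 2-fold higher in neurosphere cells, 1 over 2-fold lower and 3 within 2-fold, and a median log2 fold change of 0.89. Enpp3, a surface pyrophosphatase of the same family as Enpp1, had 23 UMIs in the adherent library (0.497 CPM) and 463 UMIs in the neurosphere library (7.13 CPM), with a log2 fold change of 3.84 (3.24 to 4.51). Its share of cells was 0.455% and 8.12%, or 0.224% and 3.34% after thinning, and the adherent share, below that of Cx3cr1, leaves unsettled whether the 23 UMIs the fold rests on stand above background. Alpl, the tissue-nonspecific alkaline phosphatase, which can take ATP down to adenosine, was 0.907 and 2.54 CPM, a log2 fold change of 1.49 (0.99 to 2.01). The adherent share of Alpl, 0.792% of cells, was below that of Cx3cr1 too, so whether its 42 adherent UMIs stand above background was not settled. Entpd7, an intracellular member of the Entpd family, was 8.68 and 27.1 CPM (1.64, 1.49 to 1.80). Entpd3, a surface enzyme, was at 1.36 and 0.585 CPM (-1.22, -1.84 to -0.61), with shares of cells, 1.21% and 0.865%, below that of Cx3cr1. Cant1, a nucleotidase of the endoplasmic reticulum and Golgi, was 13.3 and 15.3 CPM (0.20).

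A wider set of 7 surface hydrolases, put together after the values had been seen, added Enpp3, Alpl, Entpd3 and Entpd8 to Entpd1, Entpd2 and Enpp1. It held 31.1 CPM (29.5 to 32.7) in adherent cells and 14.0 CPM (13.1 to 15.0) in neurosphere cells. The log2 fold change of the sum was -1.15 (-1.27 to -1.03). This depended on the genes chosen. With Acpp, an acid phosphatase that can also make adenosine from AMP (4.26 and 7.88 CPM), the sums were 35.3 and 21.9 CPM and the log2 fold change was -0.69 (-0.79 to -0.59), within 2-fold. Of the 7 genes, Entpd2 and Enpp1 held 46.0% and 43.5% of the adherent UMIs, and 5.05% and 17.6% of the neurosphere UMIs. Enpp3 and Alpl held 1.60% and 2.92% in adherent cells and 50.8% and 18.1% in neurosphere cells.

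**Figure D3:**
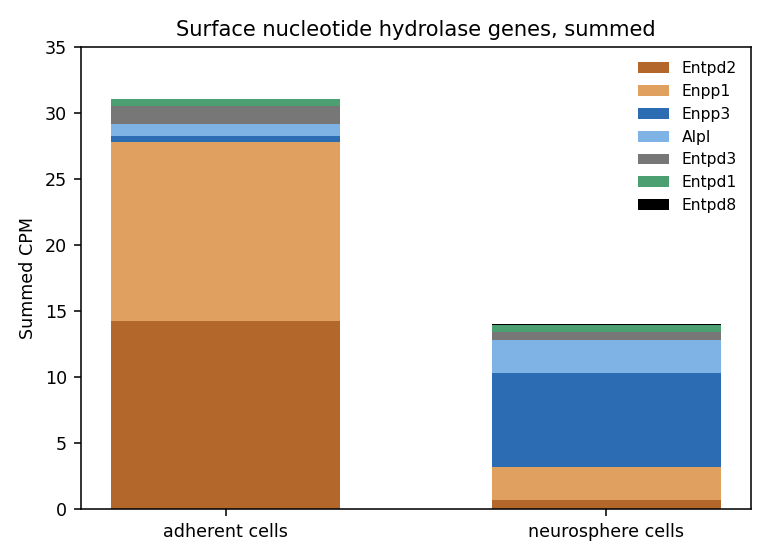
Summed CPM of 7 surface nucleotide hydrolase genes in each library, stacked by gene, without length scaling. The adherent bar reaches 31.1 CPM and is mostly Entpd2 and Enpp1, and the neurosphere bar reaches 14.0 CPM with Enpp3 as its largest piece.

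Adora1 and Adora2b encode adenosine receptors, the first coupled to inhibitory and the second to stimulatory G proteins. Adora2b (ENSMUSG00000018500, chromosome 11 at 62248984-62266453, plus strand) had 11 UMIs and 26 UMIs, 0.238 CPM (0.119 to 0.425) in the adherent and 0.400 CPM (0.262 to 0.587) in the neurosphere library. Adora1 (ENSMUSG00000042429, chromosome 1 at 134199223-134235431, minus strand) had 2 UMIs and 5 UMIs, 0.0432 CPM (0.00523 to 0.156) and 0.0770 CPM (0.0250 to 0.180). Both genes were under 50 UMIs, and were seen in 0.218% and 0.608% of cells (Adora2b) and in 0.0396% and 0.117% of cells (Adora1). These shares were within the range of the immune markers without Cx3cr1, except that of Adora2b in neurosphere cells, which was just above it. The other two receptors also had few UMIs. Adora2a had 10 UMIs and 11 UMIs, and Adora3 had 0 UMIs and 13 UMIs, both too few to compare.

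Slc29a1 (ENSMUSG00000023942) encodes the equilibrative nucleoside transporter that carries adenosine across the plasma membrane in either direction. It was the most often seen of the 10 genes in both libraries. Adherent cells had 4251 UMIs, 91.8 CPM (89.1 to 94.6), and neurosphere cells had 2761 UMIs, 42.5 CPM (40.9 to 44.1). The neurosphere level was 2.16-fold lower, with a log2 fold change of -1.11 (-1.18 to -1.04), and 10.5% of the genes with at least 50 UMIs had a lower one. The value lay within 2-fold, at -0.89, when mitochondrial and ribosomal genes stayed in the total, and just within 2-fold when the trend with gene length was removed.

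Slc29a1 lies on chromosome 17 at 45585200-45599606, minus strand, with Gm17080 on the other strand. A UMI was seen in 50.1% of adherent cells and 35.1% of neurosphere cells, although neurosphere cells were sequenced to more UMIs. Thinned to 5000 UMIs, the shares were 34.1% (32.7 to 35.5) and 15.0% (13.9 to 16.1). Cells in which it was seen held a mean of 1.68 UMIs in the adherent library and 1.84 UMIs in the deeper neurosphere library. In neurosphere cells, 9 cells held 10 or more UMIs and together 5.11% of the UMIs of Slc29a1, the highest with 44 of its 25001 UMIs. In adherent cells 2 cells held 10 or more (0.541%), the highest with 12 UMIs. At the same depth the order was the other way, with 5 or more UMIs in 9 adherent cells (0.202%) and 3 neurosphere cells (0.0715%), and no cell reached 10 UMIs.

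Barcodes left out by the cell filter, whose median share of mitochondrial UMIs was 48.8% in the adherent and 87.0% in the neurosphere library, held few UMIs on the genes left after filtering (392008 and 574706). They had 48 and 16 UMIs of Slc29a1, 14 UMIs and 1 UMI of Entpd2, and 10 and 2 UMIs of Enpp1. Relative to their own totals, the adherent ones were at 122 CPM for Slc29a1 (90.3 to 162), 35.7 CPM for Entpd2 (19.5 to 59.9) and 25.5 CPM for Enpp1 (12.2 to 46.9). The interval of Entpd2 lay above the level of the kept cells, and those of Slc29a1 and Enpp1 included it.

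Of 6 other uptake genes, 3 reached 50 UMIs, with 0 over 2-fold higher and 1 over 2-fold lower. Slc29a2, the second equilibrative transporter, had 154 UMIs and 231 UMIs (log2 fold change 0.10), and Slc28a1, a sodium-coupled transporter, had 39 UMIs and 89 UMIs (0.70, 0.14 to 1.28). Slc28a1 was seen in 0.733% and 2.03% of cells, below Cx3cr1 in each library. Slc29a4, with 34 UMIs and 18 UMIs (-1.41, -2.32 to -0.54), was seen in 0.673% and 0.421% of cells, also below Cx3cr1. Of 5 genes listed under the removal of adenosine, 4 reached 50 UMIs, with 0 over 2-fold higher and 2 over 2-fold lower. Ada, adenosine deaminase, was at 4.08 CPM in the adherent and 0.585 CPM in the neurosphere library (-2.80, -3.35 to -2.29), where its share of cells, 0.865%, was below that of Cx3cr1. Pnp2, a purine nucleoside phosphorylase, was 35.4 and 12.3 CPM (-1.52, -1.64 to -1.40), and its near relative Pnp was 168 and 100.7 CPM (-0.74). Reads that match both Pnp and Pnp2 would be lost from both. Adk, the adenosine kinase that returns adenosine to AMP, was close to level at 121.7 and 117.5 CPM (-0.05, -0.10 to 0.00).

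**Figure D4:**
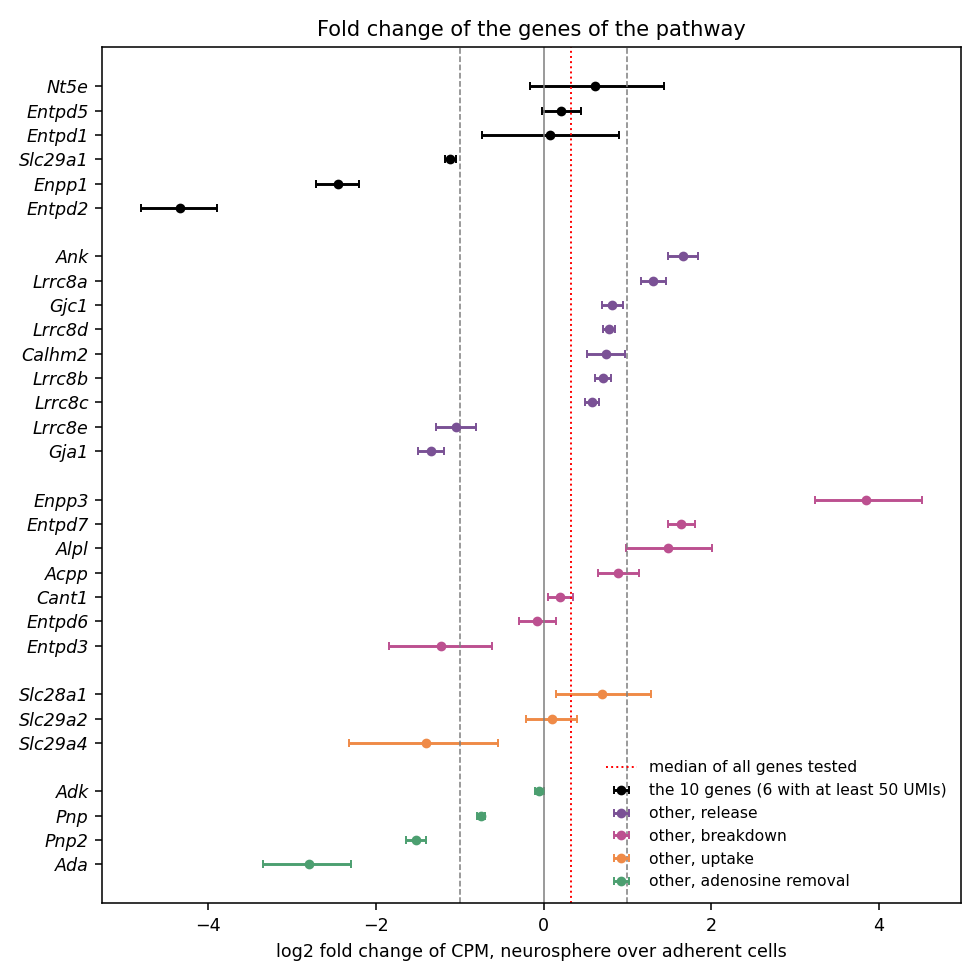
Log2 fold change of CPM, neurosphere over adherent cells, with exact 95% conditional intervals, for the 6 of the 10 genes with at least 50 UMIs (black) and for other genes of the pathway by role (colors). Dashed lines mark 2-fold, the dotted line marks the median of all genes tested (0.32), and Entpd2 at -4.33 and Enpp3 at 3.84 lie at the ends.

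Within each library, cells were grouped into 10 clusters, which were numbered and not named. Slc29a1 was among the 2000 variable genes used to form the clusters in both libraries, Entpd2 and Enpp1 in the adherent library and Enpp3 in the neurosphere library, so the levels by cluster are a description. Shares and levels by cluster also carry the depth of each cluster, whose median ran from 7623 to 21048 UMIs per cell in neurosphere cells.

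Slc29a1 had a narrow range in adherent cells. Among clusters of at least 100 cells, it ran from 67.1 CPM (59.3 to 75.7) in cluster 4, led by Cd68, Prrg1, Ccl2, Mt3 and Mt4, to 116.6 CPM (104.0 to 130.3) in cluster 7, led by Ica1l, Oasl1 and Ptgds, a ratio of 1.74. In neurosphere cells the same range was 13.2-fold. It ran from 6.59 CPM (4.54 to 9.25) in cluster 1, led by Comp, Pdzd2, Ism1, Slit3 and Loxhd1, to 86.7 CPM (81.0 to 92.6) in cluster 5, led by Wnt7b, Prss56, Igf1, Fap and Btbd16. Cluster 6, led by Enpp2, Dusp15, Mbp, Gm4876 and Gpr17, was also low at 12.0 CPM (8.71 to 16.1). Comp is a cartilage matrix gene and Mbp a myelin gene. Thinned to 5000 UMIs, 3.80% of cells of cluster 1, 4.32% of cluster 6 and 31.9% of cluster 5 had a UMI. The level in neurosphere cluster 5 was thus inside the range of the adherent clusters, and the other neurosphere clusters of at least 100 cells were below 67.1 CPM. At a clustering resolution of 0.8, the lowest adherent cluster of at least 100 cells was at 81.6 CPM (73.0 to 90.9). The highest neurosphere cluster (239 cells) was then at 113.8 CPM, and the next at 70.3 CPM (65.2 to 75.6), below that adherent level. Thinned to 5000 UMIs, 26.7% and 27.3% of the cells of these neurosphere clusters had a UMI. The part of single cells in the 113.8 CPM was not tested. At resolution 1, between neurosphere clusters 1 and 5 were cluster 7 (58.5 CPM, led by Hist1h2ap, Hist1h1b, Neil3, Rrm2 and Tcf19), cluster 8 (51.0 CPM, led by Ung, Cdc6, Cidea, Ccne2 and Slfn9) and cluster 4 (43.6 CPM), among others. The small cluster 9 (75 cells, led by Cxcl2, Nppb and Ccl2) held 100.6 CPM (80.8 to 123.8), but 44 of its 89 UMIs came from the 1 cell named above, and without that cell it held 52.3 CPM.

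Entpd2 varied more than Slc29a1 among adherent clusters. Among clusters of at least 100 cells, it was highest at 27.4 CPM (23.1 to 32.2) in cluster 2, led by 9130015A21Rik, Krt17, Enpp2, Ccl5 and Mgp, and lowest at 3.26 CPM (1.20 to 7.09, 6 UMIs) in cluster 8, led by Egflam, Shisa8, Vcan, Osbp2 and Ly6a, a ratio of 8.41. In neurosphere cells the highest cluster, number 4, led by Chit1, Cyp4f18, Spp1, Iigp1 and Wfdc3, held 13 of the 46 UMIs (2.25 CPM), and clusters 6 and 9 held 0 UMIs. At a clustering resolution of 0.8 the highest neurosphere cluster was at 4.03 CPM (14 UMIs). Among clusters of at least 100 cells, Enpp1 was highest in adherent cluster 1, led by the mitosis genes Aspm, Pif1, Cenpf, Ccnf and Fam83d, at 22.5 CPM (19.5 to 25.9). It was lowest in cluster 8 at 3.26 CPM (6 UMIs), a ratio of 6.90. In neurosphere cells, by the same limit, Enpp1 was highest in cluster 0, led by Aatk, Depdc1b, Chn2, Aspm and Gm3550, at 4.91 CPM (3.65 to 6.45), and lowest in cluster 7 at 1.18 CPM (0.511 to 2.33). Cluster 3, led by the mitosis genes Cdc20, Plk1, Ube2c, Arhgef39 and Ccnb1, was at 2.09 CPM (1.29 to 3.20). At a resolution of 0.8 the highest level was 5.19 CPM (18 UMIs), in a cluster of 239 cells. By these few UMIs adherent cluster 8 was lowest for both hydrolases, with intervals that met those of cluster 4 for Entpd2 and of several clusters for Enpp1, while its level of Slc29a1, 105.3 CPM, was among the higher ones.

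Entpd5 had a narrower range. Among clusters of at least 100 cells it ran from 2.71 to 6.56 CPM in adherent cells and from 3.92 to 10.1 CPM in neurosphere cells. The highest neurosphere clusters of this size were those low in Slc29a1, cluster 6 at 10.1 CPM (7.09 to 13.9) and cluster 1 at 9.38 CPM (6.90 to 12.5). They held 37 and 47 UMIs of Entpd5, and their intervals met those of clusters 2, 4, 7 and 8. Enpp3 was also highest in neurosphere cluster 1, at 19.2 CPM (15.5 to 23.4), and was lowest in cluster 6, at 1.36 CPM (5 UMIs). The 45 UMIs of Nt5e in neurosphere cells were spread over all clusters, with the most in cluster 5 (13 UMIs).

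**Figure D5:**
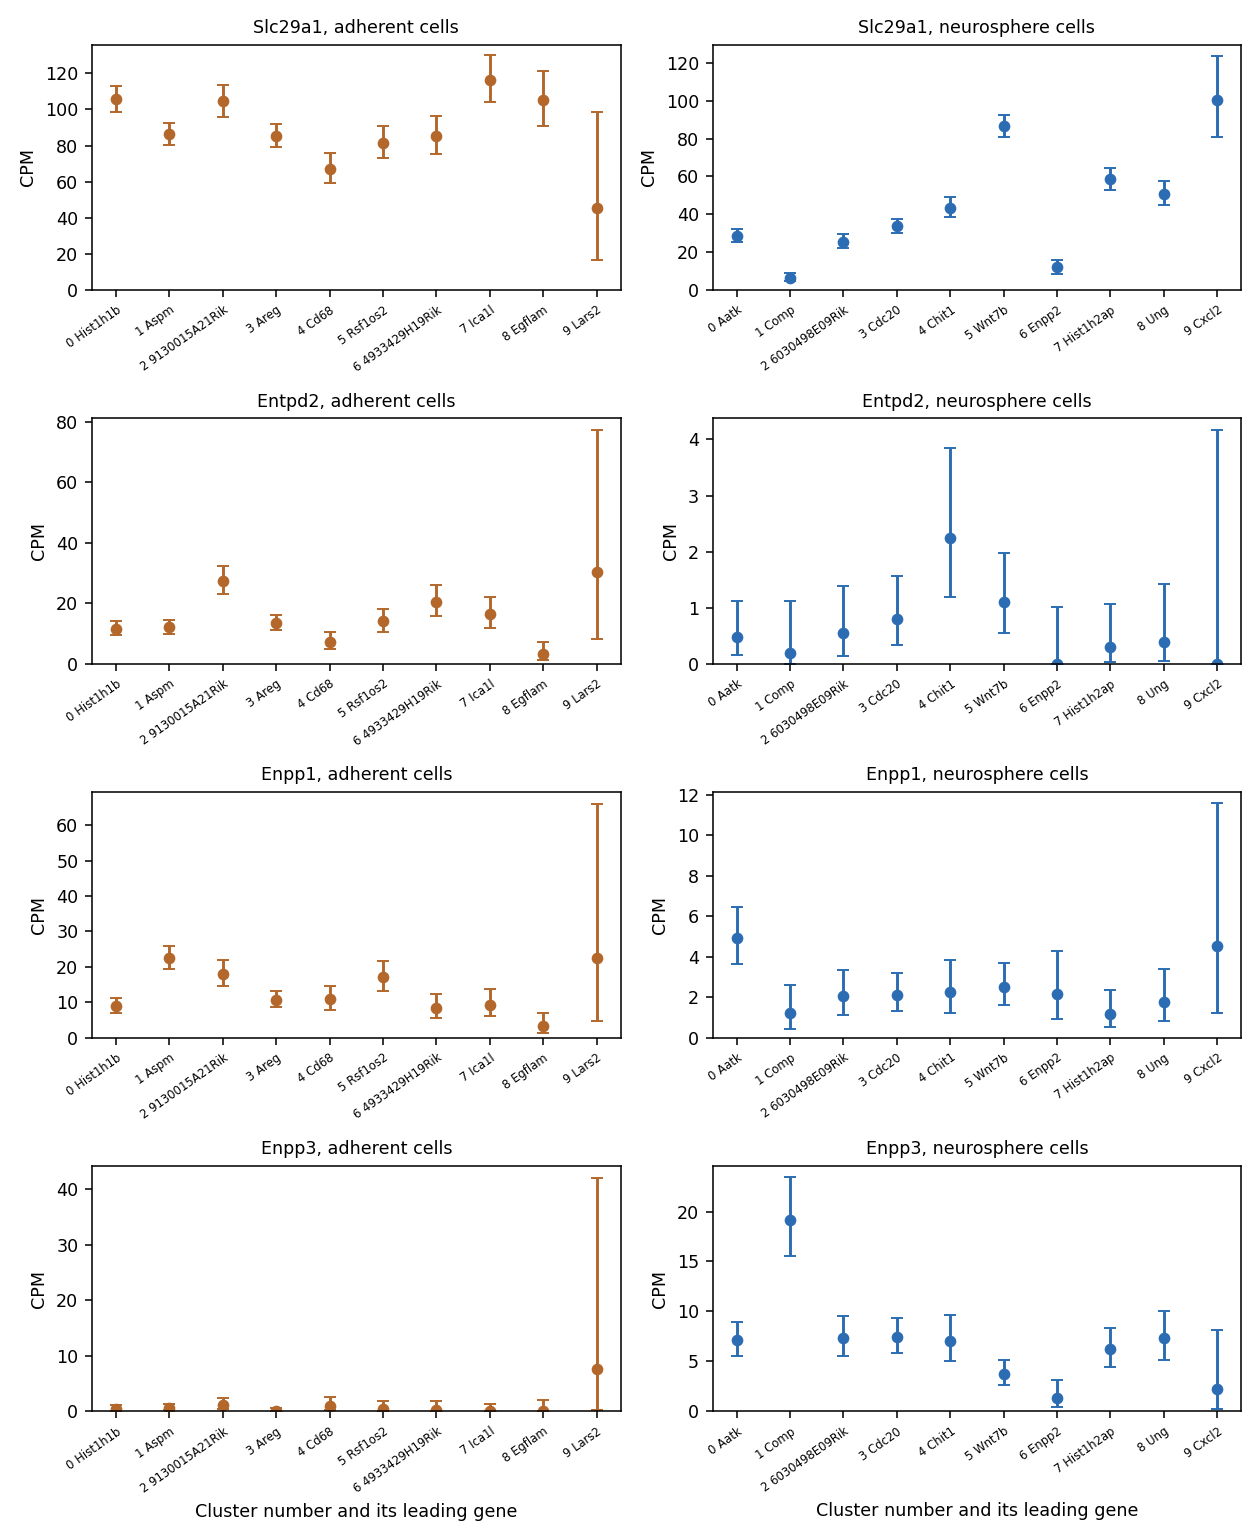
CPM of Slc29a1, Entpd2, Enpp1 and Enpp3 in each cluster of adherent (brown, left) and neurosphere (blue, right) cells, with exact 95% Poisson intervals and a linear axis from 0 in each panel, scaled to that panel. Slc29a1 spans 6.59 to 100.6 CPM over neurosphere clusters (cluster 9 is 52.3 CPM without 1 cell), and the wide bars at adherent cluster 9 come from 48 cells.

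Over the 20 clusters of both libraries, centred within each library, the 3 genes whose levels were most like those of Slc29a1 among 10523 genes with at least 500 UMIs were Tnfrsf12a (Pearson r = 0.90), Nr2c2ap (0.89) and Trp53 (0.89). For Entpd2 they were Mest (0.89), Adamtsl5 (0.82) and Col2a1 (0.78), and for Enpp1 they were Prr5l (0.84), Mief2 (0.77) and Spats2l (0.77). The likeness of Col2a1 to Entpd2 came from the adherent clusters (0.96, against 0.23 over neurosphere clusters). That of Tnfrsf12a to Slc29a1 was 0.65 over adherent and 0.92 over neurosphere clusters. The 20 clusters include the small adherent cluster 9 (48 cells) and neurosphere cluster 9 (75 cells), and Entpd2 had only 46 UMIs over the neurosphere clusters. The clusters of a library share its cells, depth and variable genes, and these values are descriptions.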

How the data were processed

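The authors deposited, for each library, the UMI counts that Cell Ranger assigned to 32285 genes in each called cell, as raw whole numbers without normalization, from the 10x Genomics 3' protocol. The submitters' processing notes name Cell Ranger 7.0.1 and mm10. The setting for reads in introns is not given in the sources used here. The libraries held 68531063 UMIs (adherent, 5764 called cells) and 82832873 UMIs (neurosphere, 4951 called cells), and shared 12 barcodes.

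The 13 mitochondrial and 101 ribosomal genes were removed, then cells with under 1000 UMIs or under 1250 (adherent) or 2250 (neurosphere) genes. No doublet caller was run. UMIs were summed over kept cells and given as CPM. Fold changes carry exact conditional, levels Poisson and shares of cells Clopper-Pearson 95% intervals. Genes were compared from 50 UMIs, summed over the libraries, and counted from 2-fold. A library at 0 UMIs was given a floor of 3 counts. Thinning to 5000 UMIs left out 587 adherent and 80 neurosphere cells. Clusters were made in Seurat 5.3.0 under R 4.3.3 (2000 variable genes, 17 and 18 PCs, resolution 1), and leading genes are the 5 with the largest fold and at least 20 UMIs in the cluster. Named were the 10 genes, other pathway genes over 2-fold or with the most UMIs in a role, 3 genes by likeness for each of 3 genes, and leading genes, and genes near the floor were named besides. The interval and thinning code was tested on simulated data. Alternatives changed the cell filter, the scaling (TMM in edgeR 4.0.16), the genes in the total, the pseudocount, the weight of cells, the depth, the length trend, the minimum of UMIs and the resolution. The other steps ran in Python 3.11.15 (scipy 1.17.1, numpy 2.4.6, statsmodels 0.14.6 and pandas 2.3.3), and matplotlib 3.10.9 drew the plots. The genes and lists were chosen with earlier results of these data known.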

Additional observations from a re-analysis of the deposited data

How the results depend on the processing

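No paired analysis was possible because each culture has 1 library, and for the same reason no replicate could be left out. Over 13 alternatives, Entpd2 (log2 fold change -4.76 to -3.16) and Enpp1 (-2.67 to -2.07) stayed over 2-fold lower in neurosphere cells, and Slc29a1 (-1.33 to -0.89) did so in 11. Nt5e ran from 0.22 to 1.02, and Entpd1 from -0.26 to 0.29. TMM scaling shifted the median of all genes by -0.22, and a total that included mitochondrial and ribosomal genes shifted it by 0.22. With cells thinned to 5000 UMIs, 1 of the 6 genes compared (Nt5e, at 1.02) was over 2-fold higher, beside 23.9% of all genes compared. That value rests on 11 adherent and 20 neurosphere cells with a UMI of Nt5e. With a minimum of 200 UMIs, the median log2 fold change was -1.78 over the 4 genes left. Without thinning, the share of neurosphere cells with both Nt5e and a surface hydrolase was 0.0935% in place of 0. Genes at or under 0.0648 CPM (adherent) or 0.0462 CPM (neurosphere), the level of 3 UMIs, could not be told from 0. At a clustering resolution of 0.8, the highest neurosphere level moved to 113.8 CPM for Slc29a1 and to 4.03 CPM for Entpd2. The part of single cells in these levels was not tested. Entpd5 ran from -0.00 to 0.43 over the 13 alternatives.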
